A study of Mus musculus with 6 samples.

Results

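The 3 uncoupling protein genes Ucp1, Ucp2 and Ucp3 were examined together with 4 genes known as markers of brown fat, Dio2, Elovl3, Cox7a1 and Cox8b. The 7 genes were taken by symbol from the 54532 genes in the count table, and all 7 had an entry. Of these, 6 reached 0.5 CPM (counts of a gene relative to the library total) in at least 1 library and were tested among 18689 genes, while Elovl3 did not reach that level. The filter used CPM without TMM scaling, and the CPM values given below are scaled by TMM.

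RNA came from perfused whole lungs of untreated mice at 2 months old, with 3 WT and 3 ISM1-/- libraries and 1 library per mouse. Both groups were C57BL/6J mice, and ISM1 (isthmin-1) is a secreted protein that is abundant in mouse lung. The WT animals were bought and the ISM1-/- animals came from in-house stock, so genotype and animal source cannot be told apart. The comparison addressed which lung transcripts differ at baseline when ISM1 is missing. Total counts lay between 37606133 and 42345042 per library, so 3 counts corresponded to between 0.0705 and 0.0795 CPM. The targeted gene Ism1 kept 87.6% of its WT level in the libraries labelled ISM1-/- (78.8 against 69.0 CPM), with a log2 fold change of -0.19 and an adjusted p of 0.217 by the edgeR quasi-likelihood F-test (Benjamini-Hochberg). The genotype of each library therefore rests on its label, which also fixes the direction of every difference given here. The labels name the libraries as replicates, and p-values measure the spread between these 6 libraries only. The lung identity was clear, with Sftpc, the surfactant protein C gene of alveolar type II cells, at a mean of 12450 CPM in WT and 12360 in ISM1-/-.

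Uncoupling proteins are carriers of the inner mitochondrial membrane. UCP1 lets protons flow back into the matrix in brown and beige adipocytes so that fuel oxidation yields heat, and noradrenaline, acting through beta-adrenergic receptors and cAMP, raises its transcription together with that of Dio2. UCP2 is found in many tissues, in particular in immune cells, and UCP3 mainly in skeletal muscle, heart and brown fat, and neither is a classical heat producer. Cox7a1 and Cox8b encode forms of cytochrome c oxidase subunits that are typical of heart and skeletal muscle as well as of brown fat, and so are not exclusive to adipocytes.

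The promoters of the 3 uncoupling protein genes are shown to set the family side by side, and those of the 2 oxidase subunit genes because both genes had their highest value in the same library as Ucp1. They cover 250 bases before to 50 bases after the start site in RefSeq on GRCm38.p6, where 6 of the 7 genes had an entry. Capitals mark AGGTCA, the half-site bound by many nuclear receptors including thyroid hormone and PPAR receptors, TGACGTCA, the full cAMP response element, and TATAAA, the TATA box, each searched on both strands. The Ucp1 window lies at chr8:83290098-83290397 on the plus strand, the Ucp2 window at chr7:100493108-100493407 on the plus strand and the Ucp3 window at chr7:100472741-100473040 on the plus strand. The Cox7a1 window is chr7:30183921-30184220 on the plus strand and the Cox8b window chr7:140900397-140900696 on the minus strand.
Ucp1: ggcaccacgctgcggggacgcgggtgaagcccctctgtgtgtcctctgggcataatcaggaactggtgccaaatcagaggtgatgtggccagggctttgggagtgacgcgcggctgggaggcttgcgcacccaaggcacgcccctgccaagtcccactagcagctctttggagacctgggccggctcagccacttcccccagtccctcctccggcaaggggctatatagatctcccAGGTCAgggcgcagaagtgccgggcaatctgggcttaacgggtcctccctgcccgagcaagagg
Ucp2: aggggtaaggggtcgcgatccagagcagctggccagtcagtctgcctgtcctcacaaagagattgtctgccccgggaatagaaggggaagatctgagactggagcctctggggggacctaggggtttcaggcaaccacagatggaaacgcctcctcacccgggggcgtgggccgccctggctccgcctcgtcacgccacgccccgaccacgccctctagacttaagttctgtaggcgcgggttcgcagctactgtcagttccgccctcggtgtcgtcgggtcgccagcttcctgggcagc
Ucp3: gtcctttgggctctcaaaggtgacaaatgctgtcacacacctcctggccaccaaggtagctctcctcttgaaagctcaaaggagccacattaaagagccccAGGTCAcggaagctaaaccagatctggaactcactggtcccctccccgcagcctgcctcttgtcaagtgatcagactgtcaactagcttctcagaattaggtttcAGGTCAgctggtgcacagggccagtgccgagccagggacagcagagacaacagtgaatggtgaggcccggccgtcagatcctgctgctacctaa
Cox7a1: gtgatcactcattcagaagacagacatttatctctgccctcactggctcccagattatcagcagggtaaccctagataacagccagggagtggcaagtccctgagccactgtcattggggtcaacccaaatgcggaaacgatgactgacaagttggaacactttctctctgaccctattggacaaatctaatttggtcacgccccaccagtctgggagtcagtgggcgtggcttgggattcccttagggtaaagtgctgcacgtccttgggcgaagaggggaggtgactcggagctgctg
Cox8b: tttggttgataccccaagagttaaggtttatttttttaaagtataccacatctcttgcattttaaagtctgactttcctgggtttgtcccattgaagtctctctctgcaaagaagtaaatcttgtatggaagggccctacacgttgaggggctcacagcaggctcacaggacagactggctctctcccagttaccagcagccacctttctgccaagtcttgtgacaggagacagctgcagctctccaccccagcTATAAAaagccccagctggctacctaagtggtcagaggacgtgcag
The window of Ucp1 holds 1 AGGTCA, which begins 14 bases before the start site, and that of Ucp3 holds 2, which begin 149 and 44 bases before it. Cox8b holds TATAAA from 4 bases after the listed start site, and the windows of Ucp2 and Cox7a1 hold none of the 3 motifs. Over all 32851 promoters of the same length, AGGTCA occurred in 16.3%, TATAAA in 13.6% and TGACGTCA in 1.79%. The letters GC made up 64.7% of the Ucp1 window and 64.3% of the Ucp2 window, against 55.0% for Ucp3, 53.0% for Cox7a1 and 48.3% for Cox8b, beside a median of 52.7% over all promoters. A match is a run of letters and not a measured binding site.

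Levels were compared between genes in FPKM, which divides the counts by gene length as well as by library total. Ucp2 stood far above the others, at a mean of 329 FPKM over the 6 libraries. Cox7a1 followed with 8.80 FPKM, Cox8b with 6.98, Ucp3 with 2.14, Ucp1 with 0.727, Dio2 with 0.406 and Elovl3 with 0.0203 FPKM. Ucp2 alone held between 98.1% and 99.5% of the summed FPKM of the 3 uncoupling protein genes in each library. The ranges of single libraries overlapped for Cox7a1 (5.70 to 15.8 FPKM) and Cox8b (3.74 to 13.4 FPKM), so the order of those neighbours was within the spread between libraries. The same held for Ucp3 and Ucp1 and for Ucp1 and Dio2, since Ucp1 reached from 0.0295 to 3.77 FPKM. The length behind the FPKM of Ucp2 was 1132 bases, while its listed length is 6989 bases, so levels between genes also carry this choice of length.

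**Figure D1:**
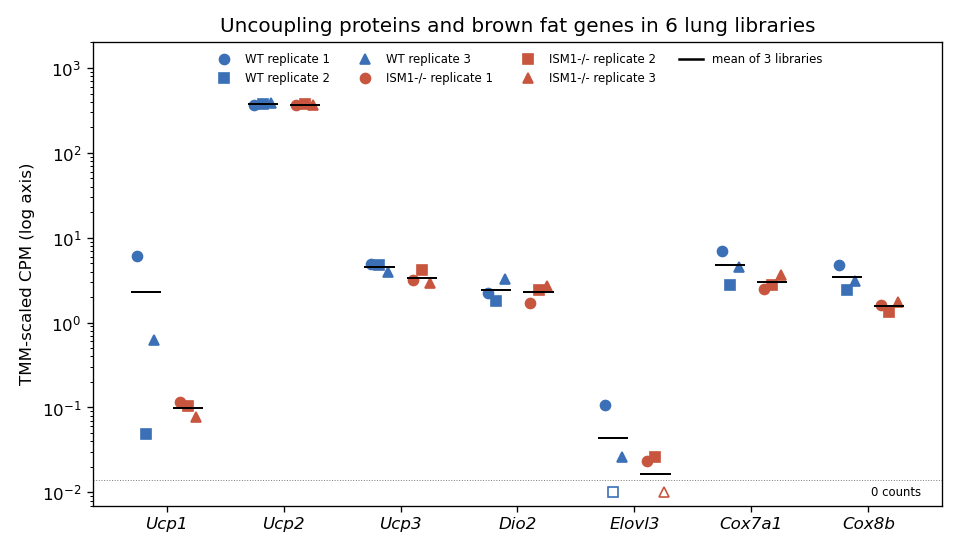
Level of the 7 genes in each library, as TMM-scaled CPM on a log axis, with WT in blue, ISM1-/- in red, a marker shape for each replicate and a bar at the mean of 3 libraries; open markers stand for 0 counts. Ucp2 lies between 364 and 390.1 in all 6 libraries, Ucp1 spreads from 0.0482 to 6.15 among WT libraries, and Cox8b has every ISM1-/- library below every WT library.

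Between the genotypes, all 6 tested genes had a lower mean in ISM1-/-, as did 48.8% of all genes tested. Only Cox8b passed both thresholds, an adjusted p under 0.1 and a change of at least 2-fold, by the edgeR quasi-likelihood F-test (Benjamini-Hochberg), 1 of 6 genes beside 0.284% of all genes tested called lower. Cox8b was also the only one of the 6 in which every ISM1-/- library lay below every WT library, a pattern found in 12.3% of all genes tested. The median log2 fold change of the 6 genes was -0.55, beside 0.00 over all genes tested, and -0.33 without WT replicate 1. In whole lung, fewer cells of a type and less RNA per cell cannot be told apart.

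Ucp1 (ENSMUSG00000031710, chr8:83290352-83298452, plus strand) encodes the brown fat uncoupling protein. Its counts were 232, 2 and 24 for WT replicates 1 to 3 against 5, 4 and 3 for ISM1-/- replicates 1 to 3, which are 6.15, 0.0482 and 0.620 CPM in WT and 0.118, 0.105 and 0.0768 CPM in ISM1-/-. One WT mouse thus supplied 89.9% of the WT counts and stood 18.4-fold above the mean of the other WT libraries, while WT replicate 2 lay below all 3 ISM1-/- libraries, so the groups overlapped. The means were 2.27 ± 3.37 CPM (SD, n = 3) for WT and 0.0999 ± 0.0209 CPM (SD, n = 3) for ISM1-/-. This gave a log2 fold change of -4.45 (standard error 1.37, 95% interval -7.51 to -1.39), and the adjusted p of 0.139 by the edgeR quasi-likelihood F-test (Benjamini-Hochberg) missed the threshold. Without WT replicate 1 the log2 fold change was -1.68 with an adjusted p of 0.444 in the same edgeR test. The call depends on the method, since the adjusted p was 0.0647 with DESeq2, 0.0335 in edgeR with the replicate number as a block and 0.000195 in edgeR without a filter on low counts. The authors used DESeq2 and list Ucp1 among their down-regulated genes. At the other end, limma on log2(FPKM + 1) gave Ucp1 an adjusted p of 0.471. Ucp1 had passed the filter of 0.5 CPM through WT replicates 1 and 3 only, the group in which it was high.

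Ucp2 (ENSMUSG00000033685, chr7:100493337-100502020, plus strand) was the abundant and steady member of the family. It had 364, 379.5 and 390.1 CPM in WT and 364, 373 and 366 CPM in ISM1-/-, from between 13744 and 15764 counts per library. The libraries lay close together and the genotypes overlapped, with means of 378 ± 13.0 CPM (SD, n = 3) for WT and 367 ± 4.79 CPM (SD, n = 3) for ISM1-/-. Their log2 ratio was -0.04 (standard error 0.0541, Benjamini-Hochberg adjusted p = 0.785 by edgeR quasi-likelihood), and its 95% interval ran from -0.16 to 0.08. Ucp2 overlaps Dnajb13, which is transcribed in the opposite direction and averaged 401 counts, a small number beside those of Ucp2.

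Ucp3 (ENSMUSG00000032942, chr7:100472990-100486432, plus strand) lies next to Ucp2, with 6904 bases between its end and the start of Ucp2. It had 186, 200 and 152 counts among WT mice against 134, 157 and 113 among ISM1-/- mice. These are 4.93, 4.82 and 3.93 CPM in WT against 3.15, 4.13 and 2.89 CPM in ISM1-/-. The genotypes overlapped, because ISM1-/- replicate 2 lay above WT replicate 3. For Ucp3 the log2 fold change was -0.43, with a standard error of 0.172, an unadjusted p of 0.0327 and an adjusted p of 0.255 by the edgeR quasi-likelihood F-test (Benjamini-Hochberg). Unlike Ucp1, Ucp3 was not set apart in WT replicate 1, whose value was 1.13 times the mean of the other WT libraries. With each library left out in turn its log2 fold change stayed between -0.59 and -0.33. Gm10603, an antisense gene, overlaps Ucp3 and had a mean of 35.3 counts, and since the strand setting of the counting is not given in the sources used here, the counts of the pair cannot be fully told apart.

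**Figure D2:**
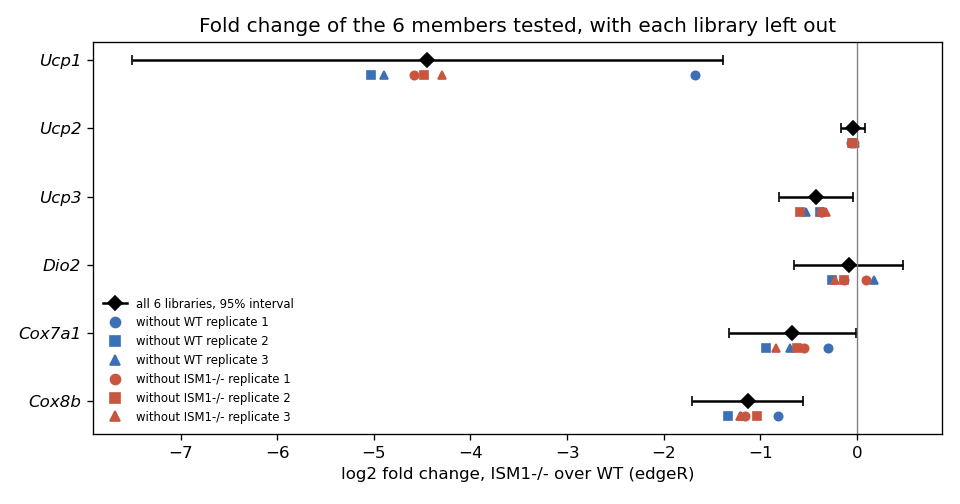
Log2 fold change of ISM1-/- over WT from edgeR for the 6 tested genes, with black diamonds and bars for the estimate and its 95% interval from all 6 libraries and coloured markers for the estimate without the library named in the key. The Ucp1 estimate moves from -4.45 to -1.68 when WT replicate 1 is left out, and Dio2 crosses 0.

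Dio2 (ENSMUSG00000007682, chr12:90724552-90738438, minus strand) encodes the deiodinase that makes active thyroid hormone inside brown adipocytes. Its counts were 85, 75 and 125 for WT against 73, 93 and 106 for ISM1-/-, or 2.25, 1.81 and 3.23 CPM against 1.72, 2.45 and 2.71 CPM. The libraries of both genotypes were interleaved. For Dio2 the log2 fold change came to -0.08 (standard error 0.253, 95% interval -0.65 to 0.48, Benjamini-Hochberg adjusted p = 0.919 by edgeR quasi-likelihood), and it turned positive when WT replicate 3 or ISM1-/- replicate 1 was left out. The RefSeq start site of Dio2, at position 90739038, lies upstream of the counted gene, which begins at position 90738438 on the minus strand. The RefSeq promoter window of Dio2, at chr12:90738989-90739288 on the minus strand, holds TGACGTCA 95 bases and TATAAA 30 bases before that RefSeq start site. It was the only one of the 6 windows with the full cAMP response element, shown here in capitals with the TATA box.
Dio2: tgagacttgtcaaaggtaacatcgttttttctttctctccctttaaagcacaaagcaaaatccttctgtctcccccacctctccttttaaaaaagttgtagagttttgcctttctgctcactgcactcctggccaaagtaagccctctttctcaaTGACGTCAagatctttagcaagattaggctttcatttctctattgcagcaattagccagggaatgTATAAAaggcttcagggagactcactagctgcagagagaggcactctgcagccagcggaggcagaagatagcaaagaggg

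Elovl3 (ENSMUSG00000038754, chr19:46131897-46135307, plus strand), which encodes an elongase of very long chain fatty acids that is induced in brown fat by cold, was close to absent from the lung libraries. It had 4, 0 and 1 counts among WT mice against 1, 1 and 0 among ISM1-/- mice. A count of 0 allowed up to 0.0722 CPM in WT replicate 2 and 0.0768 CPM in ISM1-/- replicate 3, counting error only. At this depth no difference was detectable, and no fold change was computed.

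Cox8b (ENSMUSG00000025488, chr7:140898945-140900446, minus strand) encodes the heart-type form of cytochrome c oxidase subunit 8. It had 182, 101 and 120 counts among WT mice against 69, 51 and 68 among ISM1-/- mice, which are 4.82, 2.43 and 3.10 CPM in WT and 1.62, 1.34 and 1.74 CPM in ISM1-/-. WT replicate 1 was the highest library, 1.74 times the mean of the other WT libraries, and no ISM1-/- library reached the lowest WT library. Cox8b fell to 45.4% of its WT mean, from 3.45 ± 1.23 CPM (SD, n = 3) to 1.57 ± 0.204 CPM (SD, n = 3). The log2 fold change was -1.13 (standard error 0.258, 95% interval -1.71 to -0.56), with an adjusted p of 0.0538 by the edgeR quasi-likelihood F-test (Benjamini-Hochberg). The direction held with each library left out in turn (log2 fold change -1.33 to -0.81), but the adjusted p of the edgeR test stayed under 0.1 in 2 of the 6 fits. It rose to 0.103 without WT replicate 1, 0.111 without WT replicate 3, 0.166 without ISM1-/- replicate 1 and 0.180 without ISM1-/- replicate 2. Over the alternatives that kept all 6 libraries it was between 0.000764 (edgeR without a filter) and 0.0729 (limma on log2(FPKM + 1)), with 0.00251 from DESeq2.

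Cox7a1 (ENSMUSG00000074218, chr7:30184144-30186078, plus strand) encodes the heart-type form of subunit 7a. It had 260, 115 and 177 counts among WT mice against 106, 106 and 143 among ISM1-/- mice, which are 6.89, 2.77 and 4.57 CPM in WT and 2.49, 2.79 and 3.66 CPM in ISM1-/-. WT replicate 1 was again the highest, 1.88 times the mean of the other WT libraries, and WT replicate 2 lay within the range of the ISM1-/- libraries. Its log2 fold change was -0.67 (standard error 0.294, Benjamini-Hochberg adjusted p = 0.306 by edgeR quasi-likelihood), and it was -0.30 without WT replicate 1. Without a filter on low counts the adjusted p in edgeR was 0.0659, at a change below 2-fold, and over the other alternatives it reached up to 0.664.

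The heart-type subunits were also compared with the forms used in most tissues, as the share of the FPKM summed over each pair of genes. Cox8b made up 7.43%, 4.16% and 5.04% of Cox8a plus Cox8b in WT and 2.80%, 2.45% and 3.73% in ISM1-/-, without overlap. The mean share was 5.54 ± 1.70% (SD, n = 3) for WT and 2.99 ± 0.663% (SD, n = 3) for ISM1-/- (two-sided exact permutation test, p = 0.1, the smallest that 3 against 3 libraries allow). For Cox7a1 of Cox7a1 plus Cox7a2 the shares were 15.9%, 7.23% and 9.94% for WT against 6.32%, 7.18% and 8.68% in ISM1-/-, with overlap (exact permutation p = 0.2). Cox6a2, the heart-type form of subunit 6a, was added as a further pair and made up 17.4%, 9.69% and 9.47% of Cox6a1 plus Cox6a2 in WT and 6.14%, 8.44% and 9.42% in ISM1-/-. These shares did not overlap (exact permutation p = 0.1), although the nearest libraries of the genotypes differed by little. Adjusted by Benjamini-Hochberg over the 3 shares tested, these exact permutation p values were 0.15, 0.2 and 0.15. WT replicate 1 had the highest share in all 3 pairs. Without that library the difference of the mean shares, ISM1-/- minus WT, went from -2.55 to -1.61 percentage points for Cox8b, from -3.63 to -1.19 for Cox7a1 and from -4.20 to -1.58 for Cox6a2. The widespread partners were far more abundant and did not pass the test, with a log2 fold change of -0.17 for Cox8a (88.0 against 78.1 CPM), -0.02 for Cox7a2 (42.5 against 41.8 CPM) and -0.12 for Cox6a1 (104.5 against 96.0 CPM), and adjusted p values of 0.354, 0.923 and 0.596 in the edgeR test.

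**Figure D3:**
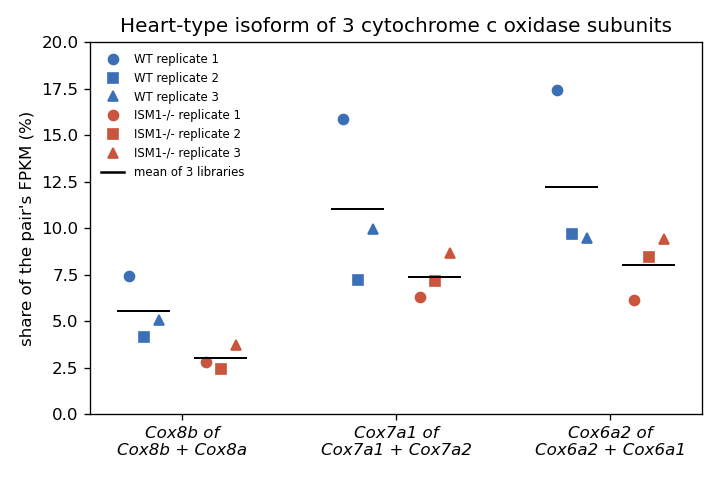
Share of FPKM held by the heart-type gene within 3 pairs of cytochrome c oxidase subunit genes, in percent, for each library and with bars at the mean of 3 libraries. WT replicate 1 is the highest point in each pair, and the ISM1-/- libraries of Cox8b lie at 2.45% to 3.73%, below the lowest WT library at 4.16%.

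The other genes of the pathway were read in 6 lists. In each, the count of genes with an adjusted p under 0.1 by the edgeR quasi-likelihood F-test is given whatever the fold, beside 3.34% of all genes tested that were lower and 1.38% that were higher under that rule. Of 15 regulators of brown and beige fat, 12 were tested, 1 was lower and none was higher, with a median log2 fold change of -0.08 beside 0.00 over all genes. The lower gene was Ppara, a nuclear receptor that switches on fatty acid oxidation, at 5.33, 4.96 and 4.88 CPM in WT and 3.71, 2.77 and 3.56 CPM in ISM1-/-. Ppara had a log2 fold change of -0.59 (with a standard error of 0.148, Benjamini-Hochberg adjusted p = 0.0732 by edgeR quasi-likelihood), and its adjusted p stayed under 0.1 only without ISM1-/- replicate 3 among the 6 fits that left out 1 library, with 0.156 without WT replicate 1 and 0.215, the highest, without ISM1-/- replicate 2. Prdm16, the regulator that commits precursors to the brown fat fate, was at 50.4 CPM in WT and 48.1 CPM in ISM1-/-, with a log2 fold change of -0.07 and an adjusted p of 0.702 in the edgeR test. The mitochondrial regulators Nrf1, Esrra and Tfam, the other most abundant genes of the list, had log2 fold changes of 0.04, -0.07 and 0.03. Zic1, which marks classical brown fat, had 0 counts in all 6 libraries.

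Of 19 thermogenic effectors and brown fat markers, 17 were tested and none passed an adjusted p of 0.1. In mean, 13 of the 17 were lower, beside 48.8% of all genes tested. The median log2 fold change was -0.13, or -0.10 without WT replicate 1. The genes of this list with a higher mean were Bmp8b, Tmem26, Tnfrsf9 and Cpt1b, also named after their values were seen. Their log2 fold changes were 0.50, 0.27, 0.26 and 0.03, and in Bmp8b every ISM1-/- library lay above every WT library. Cidea, a lipid droplet protein gene that marks brown fat, is named with Sln, Ebf2 and Adrb3 after their values were seen. It had 230, 51 and 51 counts among WT mice against 35, 31 and 22 among ISM1-/- mice. Every ISM1-/- library lay below every WT library, as in 12.3% of all genes tested and unlike Ucp1. WT replicate 1 stood apart for Cidea too, at 4.79 times the mean of the other WT libraries, against 18.4 times for Ucp1. The Cidea log2 fold change of -1.96 had an adjusted p of 0.133 in the edgeR test and was -0.79 without WT replicate 1. Sln, which encodes sarcolipin, a regulator of the calcium pump in muscle that also serves heat production there, had 860, 364 and 422 counts among WT mice against 178, 247 and 306 among ISM1-/- mice (log2 fold change -1.20, adjusted p = 0.108 in the edgeR test), and its log2 fold change was -0.67 without WT replicate 1. The 4 most abundant genes were Atp2a2, the calcium pump gene of heart, with a log2 fold change of -0.47, Ckb, which encodes brain-type creatine kinase, with -0.25, Kcnk3, a potassium channel gene, with -0.05, and Ryr2, the calcium release channel gene of heart, with -0.99, none of which passed the test. Without WT replicate 1 these were -0.24 for Atp2a2, -0.57 for Ryr2, -0.18 for Ckb and 0.13 for Kcnk3, the last with its sign turned. In the list of regulators, Ebf2, an early factor of the brown fat lineage, had 59, 28 and 34 counts among WT mice against 15, 8 and 23 among ISM1-/- mice (log2 fold change -1.42, adjusted p = 0.137 in the edgeR test).

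Of 15 genes of the adrenergic and thyroid inputs, 14 were tested, 2 were lower and none was higher, with a median log2 fold change of -0.13. Tshr, the thyrotropin receptor gene, which is expressed in thyroid and adipocytes, had 54, 42 and 40 counts among WT mice against 12, 11 and 13 among ISM1-/- mice. The genotypes were far apart, at 1.16 ± 0.236 CPM (SD, n = 3) for WT and 0.301 ± 0.0275 CPM (SD, n = 3) for ISM1-/-. Tshr fell by 1.93 on the log2 scale (with a standard error of 0.294, Benjamini-Hochberg adjusted p = 0.0163 by edgeR quasi-likelihood), and its adjusted p was under 0.1 whichever of the 6 libraries was left out. The log2 fold change of Tshr without WT replicate 1 was -1.75, so this fall did not rest on that library. Tshr passed the filter of 0.5 CPM through the WT libraries only, at 1.43, 1.01 and 1.03 CPM, while the ISM1-/- libraries lay at 0.282, 0.290 and 0.333 CPM. Slc16a10, an aromatic amino acid and thyroid hormone transporter gene, fell from 22.2 ± 2.01 CPM (SD, n = 3) to 16.2 ± 0.886 CPM (SD, n = 3), a log2 fold change of -0.45 (adjusted p = 0.0319 in the edgeR test) that stayed under an adjusted p of 0.1 in 4 of the 6 fits. The adjusted p of Slc16a10 was 0.119 without ISM1-/- replicate 1 and 0.129 without ISM1-/- replicate 2. Adrb3, the beta-adrenergic receptor gene through which brown fat is activated in rodents, had a log2 fold change of -0.06 (18.2 against 17.5 CPM, adjusted p = 0.865 in the edgeR test). The abundant Gnas, Thra, Prkaca and Adrb1, which encode the stimulatory G protein alpha subunit, a thyroid hormone receptor, the catalytic subunit of protein kinase A and the beta-1 adrenergic receptor, had log2 fold changes of -0.04, -0.18, -0.12 and 0.04, and none passed.

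None of the genes related to the members by family passed an adjusted p of 0.1 in the edgeR test. Of 8 relatives of the uncoupling proteins among the mitochondrial carriers, 7 were tested, with a median log2 fold change of -0.08. The adenine nucleotide carrier genes Slc25a4 and Slc25a5, which exchange ADP for ATP and also conduct protons, had log2 fold changes of -0.17 and -0.09, and Slc25a27 and Slc25a14, sometimes called UCP4 and UCP5, both had 0.17. Of 6 other elongase genes, 5 were tested, with a median of -0.13. Elovl6 had 821, 480 and 444 counts among WT mice against 394, 361 and 379 among ISM1-/- mice, a log2 fold change of -0.65 (adjusted p = 0.174 in the edgeR test) and -0.28 without WT replicate 1. Elovl1, Elovl5 and Elovl7 had log2 fold changes of -0.13, 0.12 and -0.06. Of 10 further genes of variable oxidase subunits, 9 were tested, with a median of -0.07. Cox6a2 had 899, 550 and 494 counts among WT mice against 328, 417 and 374 among ISM1-/- mice, a log2 fold change of -0.82 (adjusted p = 0.107 in the edgeR test) and -0.46 without WT replicate 1. Cox4i1 and Cox7a2l, the most abundant of this list with Cox8a and Cox6a1, had log2 fold changes of -0.07 and 0.02.

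**Figure D4:**
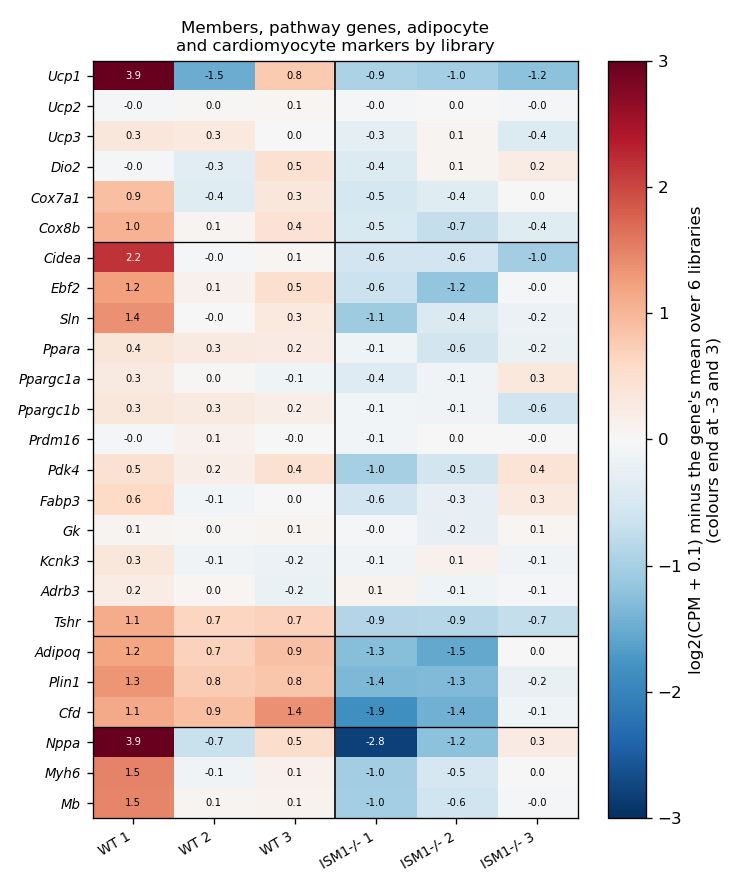
Log2(CPM + 0.1) of 25 genes in the 6 libraries, each gene relative to its own mean, with red above and blue below the mean and colours ending at -3 and 3. Rows hold the 6 tested genes, pathway genes chosen with their values known, 3 adipocyte markers and 3 cardiomyocyte markers, and the WT 1 column is the darkest red for Ucp1, Cidea and Nppa.

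Markers of other cell types differed between the same libraries. All 15 adipocyte markers were lower in mean in ISM1-/-, 13 passed an adjusted p of 0.1 in the edgeR test, beside 3.34% of all genes tested, and 11 did so without WT replicate 1. Their summed level was 475, 422 and 467 CPM in WT and 224, 257 and 315 CPM in ISM1-/-, without overlap. Adipoq, which encodes adiponectin and was counted here as an adipocyte marker, was at 14.8, 10.4 and 11.9 CPM in WT and 2.61, 2.16 and 6.50 CPM in ISM1-/-. The authors instead assign adiponectin in the lung to alveolar type II cells, where its staining overlapped that of surfactant protein C but not that of a macrophage marker. They also report less adiponectin protein in ISM1-/- lung and its secretion by a human alveolar type II cell line given recombinant ISM1. In white and brown fat of ISM1-/- mice they saw no significant change of adiponectin. None of the 15 markers was at 0 in any library. All 16 cardiomyocyte markers were also lower in mean, with a median log2 fold change of -1.01, or -0.50 without WT replicate 1. Of the 16, 2 passed (Myl7 and Csrp3), beside 3.34% of all genes tested, and none passed without WT replicate 1. The summed level of the 16 markers was 2014, 681 and 803 CPM in WT and 368, 509 and 726 CPM in ISM1-/-, with overlap between genotypes. None of these markers was at 0 in any library. WT replicate 1 thus held the highest value of Ucp1, Cidea, Cox7a1, Cox8b and Cox6a2 and of the summed cardiomyocyte markers alike, while the summed adipocyte markers of that library (475 CPM) lay beside 467 CPM in WT replicate 3. That sum rests largely on Pnpla2, Cfd and Lipe, at 136, 103 and 67.6 CPM in WT replicate 1. Some of the 15 adipocyte markers were highest in WT replicate 1 as well, with Adipoq, Fabp4, Plin1, Retn, Pck1 and Slc2a4 between 1.32 and 1.89 times the mean of the other WT libraries. The rest, Plin4, Cidec, Lep, Cfd, Lipe, Pnpla2, Adig, Mrap and Lgals12, had their highest value in another WT library. In WT replicate 1 they lay between 0.928 (Lgals12) and 1.125 (Adig) times the mean of the other WT libraries. Skeletal muscle markers were scarce, with 5 of 12 markers tested, sums of 9.30 to 25.0 CPM, and Myh4, Myog and Myod1 at 0 in all 6 libraries. Of the 5, 1 was lower with an adjusted p under 0.1 in the edgeR test (Tnnt3), beside 3.34% of all genes tested, and none was higher. In mean, 4 of the 5 were lower, while Mylpf was higher (log2 fold change 0.41, adjusted p = 0.349 in the edgeR test). The part of adipocytes and of heart muscle in the differences of Ucp1, Cox7a1 and Cox8b was not tested.

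**Figure D5:**
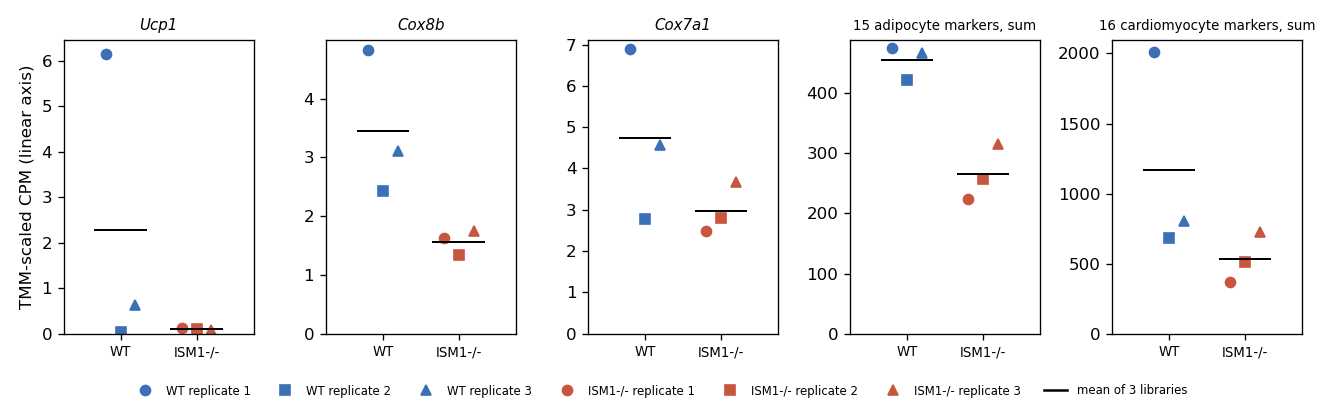
Level of Ucp1, Cox8b and Cox7a1 and the summed level of 15 adipocyte and 16 cardiomyocyte markers in each library, in TMM-scaled CPM on linear axes, with bars at the mean of 3 libraries. WT replicate 1 is the highest WT library in all 5 panels, by a wide margin in Ucp1 and in the cardiomyocyte sum (2014 against 681 and 803), and the adipocyte sums of the genotypes do not overlap.

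Of 12 macrophage and leukocyte markers, 11 were tested, with a median log2 fold change of 0.10. At an adjusted p under 0.1 in the edgeR test, 2 were higher, beside 1.38% of all genes tested, and none was lower. One of the 2 was Ptprc, the pan-leukocyte gene (log2 fold change 0.40, adjusted p = 0.0546 in the edgeR test). The 4 markers with a lower mean, named after their values were seen, were Cd68, Marco, Siglecf and Chil3, at -0.11, -0.31, -0.18 and -0.15. Of 8 lung epithelial and endothelial markers, all were tested and 2 were lower with an adjusted p under 0.1 in the edgeR test, beside 3.34% of all genes tested, namely Scgb1a1 (log2 fold change -0.51), the club cell secretory protein gene, and Foxj1 (-0.51), the ciliated cell regulator.

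The genes with the most similar profile were sought among the 15875 genes whose mean reached 1 CPM, as the smallest mean absolute difference between log2 CPM values over the 6 libraries after each gene was centred on its own mean. This describes likeness over 6 libraries that share their depth and their mice. Nearest to Ucp1 were Gm13054, a predicted gene, at 0.75, Nppa, the atrial natriuretic peptide gene of heart, at 0.91, and Kcng2, a potassium channel subunit gene, at 0.92, while Ucp1 itself ranged over 5.97 log2 units. Nppa had 7858, 359 and 774 counts among WT mice against 81, 220 and 641 among ISM1-/- mice, with WT replicate 1 far above the rest as for Ucp1. Among the nearest to Cox7a1 were Fhod3 at 0.11 and Mlip at 0.12, which encode a sarcomere-organizing formin and a muscle protein that binds lamin. Nearest to Cox8b were Slc47a1, an organic cation exporter gene, at 0.08, Klhl30 at 0.08 and Rxrg, the gamma retinoid X receptor gene, at 0.11. Of these 3, Slc47a1 passed an adjusted p of 0.1 in the edgeR test (log2 fold change -0.98, adjusted p = 0.0767). Rxrg did not pass in that test (log2 fold change -1.16, adjusted p = 0.137), while the authors, who used DESeq2, list it among their down-regulated genes. Nearest to Ucp3 were Gm44899, Cav3, the caveolin gene of muscle, and 2810430I11Rik, at 0.05 to 0.06. Nearest to Ucp2 were Ppfibp2, Tmed9 and Myd88, all within 0.0123, and nearest to Dio2 were Gm26881, Pcdhb6 and Glyctk, at 0.08 to 0.10. None of these 6 neighbours passed the edgeR test.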

How the data were processed

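RNA from perfused lungs of 3 WT and 3 ISM1-/- mice was sequenced as strand-specific poly-A libraries, 1 per mouse, and grouped by the genotype in the labels. The authors mapped reads to GRCm38 (mm10) with STAR, and the submitters' processing notes also name CASAVA. The authors deposited raw counts per gene, without normalization. The authors also deposited FPKM values, the same counts divided by library total and gene length. The counting program, its strand setting and the annotation release are not given in the sources used here. FPKM used a length other than the listed one for many genes, since 14800 of 31946 genes (46.3%) with counts matched it within a tolerance of 0.001.

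The counts were fitted with edgeR 4.0.16 in R 4.3.3 (TMM, estimateDisp, glmQLFit, glmQLFTest, genotype only). Genes with 0.5 CPM in at least 1 library were kept (18689 of 54532). Calls needed a Benjamini-Hochberg adjusted p below 0.1 with a fold change of 2 or more. CPM values are TMM-scaled except in the filter, ± is the SD over 3 libraries, and log2 fold changes are ISM1-/- over WT. Shares were compared by two-sided exact permutation tests in SciPy 1.17.1, where 3 against 3 cannot give a p under 0.1. Intervals and the limits that a count of 0 allows, set at 3 counts, cover counting error or the spread between libraries only. All pairs of libraries differed by more than sampling noise (chi-square per degree of freedom 5.61 or more). Likeness of profiles used log2 CPM with a prior count of 2. The fitting script was tested on simulated counts.

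The 7 genes, the lists and the tests were chosen with earlier results of these data known. Named genes were the 7 genes, list members with an adjusted p under 0.1, paralogs and isoform partners, up to 4 genes per list by mean CPM, 3 nearest profiles per gene, and Ism1. Any other gene named is said to be so. Alternatives were RLE size factors, DESeq2 1.42.0, other filters and thresholds, limma 3.58.1 on log2(FPKM + 1) and log2(FPKM + 0.1), the replicate number as a block and each library left out. List counts without WT replicate 1 were added after seeing that this library stood apart in Ucp1 and in the cardiomyocyte list. Results of 2 genes under this rule are not reported here.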

Additional observations from a re-analysis of the deposited data

How the results depend on the processing

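Of the tested genes, 1 was called in the fit reported here, and 2 were called with DESeq2, with no filter on low counts and with the replicate number as a block, in each case Cox8b and Ucp1. At an adjusted p of 0.05 in place of 0.1, 0 were called. With each library left out in turn, 0 to 2 were called. Over all genes, 106 were called, against 293 with no filter, 51 at an adjusted p of 0.05, 882 with no fold minimum and 31 to 188 with each library left out. The log2 fold change of Dio2 turned to 0.18 without WT replicate 3 and to 0.09 without ISM1-/- replicate 1, within a range of -0.26 to 0.18. The other tested genes kept a negative sign in all 13 alternatives run on them, or 12 for Ucp1. The log2 fold change of Ucp1 was -0.84 with limma on log2(FPKM + 1) and -1.95 with a pseudocount of 0.1, which compress low values. Replicate numbers are shared by different mice, and deviations of same-numbered libraries correlated at -0.04, 0.03 and 0.00. Differently numbered libraries correlated at -0.06 to 0.05, so the numbers gave no sign of pairing. A correlation over all genes cannot exclude a shared factor that acts on few genes. The replicate block called 130 genes and changed the call of Ucp1 alone among the 7 genes (adjusted p 0.0335). With each library left out, the difference in share (percentage points) ran from -3.25 to -1.61 for Cox8b, -5.52 to -1.19 for Cox7a1 and -5.56 to -1.58 for Cox6a2, each smallest without WT replicate 1. Leaving out WT replicate 1, chosen after seeing the data, lowered the count of genes past an adjusted p of 0.1 from 1 to 0 in the regulators and skeletal muscle lists and from 2 to 0 in the cardiomyocyte list. With 3 libraries per genotype and at most 260 counts per library for every gene except Ucp2, differences of single genes smaller than their intervals could not be resolved.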
